A study of Danio rerio with 6 samples.

Results

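The genes described here are the Wnt ligands, the factors that secrete them, their Frizzled receptors and co-receptors, and the secreted proteins that block them. They were taken by name from the deposited gene tables: every gene whose name began with *wnt* and a digit, *fzd*, *sfrp* or *dkk*, together with *ror1*, *ror2*, *ryk*, *lrp5*, *lrp6*, *frzb*, *wif1*, *porcn* and *wls*. This gave 58 of 25281 genes, which were 26 ligands, 2 secretion factors, 18 receptors or co-receptors and 12 secreted antagonists. RNA-sequencing was performed on dissected livers of *Tg*(*fabp10a:pt-Beta-catenin*) zebrafish larvae treated with GW7647, a PPARα agonist, at 1 μM, or with the vehicle DMSO, for 2 days (13-15 dpf). Each group had 3 libraries, numbered 1 to 3, and each library pooled 30 to 40 livers. Larvae of both groups carried the transgene, in which the hepatocyte promoter of *fabp10a* drives a stable form of β-catenin. This protein acts below the Wnt receptors, and how strongly the transgene was expressed in each group was not tested. In this line hepatocytes are injured by the transgene, and liver progenitor cells that arise from both surviving hepatocytes and biliary cells give rise to new hepatocytes. No livers without the transgene were among these 6 libraries.

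Wnts are lipid-modified secreted proteins. Porcn attaches the lipid and Wls carries the ligand to the cell surface, where it binds a Frizzled receptor together with Lrp5 or Lrp6 and thereby protects β-catenin from degradation. Ror1, Ror2 and Ryk receive Wnt signals that mostly bypass β-catenin. Dkk1 blocks Lrp5 and Lrp6, whereas Wif1 and the Sfrp proteins bind the ligands themselves, and several antagonists are themselves induced by β-catenin. In zebrafish, Wnt2bb from the mesoderm promotes specification of the embryonic liver, and in the mouse, Wnts and R-spondin from endothelial cells around the central vein set the zones of the hepatic lobule.

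Reads on exons numbered 19961881 to 25224356 per library, and 15705 genes passed the filter on low counts and were tested with edgeR's quasi-likelihood test, two-sided, with Benjamini-Hochberg adjustment over all of them. A gene was called at an adjusted p of at most 0.05. Expression of a gene across libraries is given as CPM, read counts scaled to a common library size with TMM factors, which were 0.903 to 0.940 in GW7647 and 1.05 to 1.1 in DMSO libraries. Levels of different genes are compared only as deposited TPM, which divides by exon length and carries no such factor. The labelled tissue was checked by its markers, and 12 hepatocyte markers summed to 45517 to 48919 CPM in GW7647 and 31359 to 33991 CPM in DMSO livers. Markers of exocrine pancreas (71.6 CPM) and muscle (37.6 CPM) were highest in DMSO replicate 2, whereas the other 5 libraries held 10.1 to 20.4 CPM and 6.3 to 17.6 CPM. In pooled livers, fewer cells of a type and less RNA per cell cannot be told apart.

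Of the 58 genes, 24 were tested and 5 were called, 4 lower and 1 higher with GW7647. The inhibitor *dkk1b*, the ligand *wnt8b* and the receptors *fzd7a* and *ror2* fell, and the co-receptor *lrp5* rose. All 5 also changed by at least 1.5-fold. Over all tested genes 9.06% were called (3.56% lower and 5.5% higher), and 6.02% with the fold threshold added (2.62% and 3.39%). Of the 5 members, *ror2* passed the filter through DMSO libraries alone, so they are not read as a share against these values. The call of *ror2* is given as a description only. With at least 10 reads required in every library *ror2* dropped out, and 3 of 21 members were lower and 1 was higher, beside 564 and 834 of 14618 genes. The median log2 fold change of the 24 genes was -0.28 (-0.20 with that minimum), beside -0.01 over all tested genes. The groups did not overlap for 9 of the 24, of which 8, *ror2* among them, were lower and 1 was higher with GW7647. They did not overlap for 31.0% of all tested genes (15.3% lower and 15.7% higher). With the replicate number as a block, 7 members, again with *ror2*, were lower and 1 was higher, beside 7.72% and 9.95% of all tested genes.

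The 34 untested genes had at most 29 reads in any library. Among them, 10 had no exon read, and 23 of the 58 had 3 exon reads or fewer in every library, which is the limit of detection used here (0.127 to 0.163 CPM). Just outside the filter, which asks for a minimum in 3 libraries, lay the ligands *wnt2*, with 8, 4 and 9 reads in GW7647 and 12, 12 and 2 reads in DMSO replicates 1, 2 and 3, and *wnt11r*, with 1, 3 and 9 reads in GW7647 and 6, 29 and 15 reads in DMSO replicates. Just inside the filter lay *wnt7aa*, with 5 to 13 reads in GW7647 and 8 to 12 reads in DMSO libraries, and *ror1*, with 7 to 13 reads in GW7647 and 10 to 21 reads in DMSO libraries. Without the filter, 24 more members could be fitted and edgeR called 0 of them. Only *wnt11r* then had an unadjusted p under 0.05 (log2 fold change -1.8, adjusted p = 0.15), and DESeq2 gave no adjusted p for any of the 24.

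**Figure D1:**
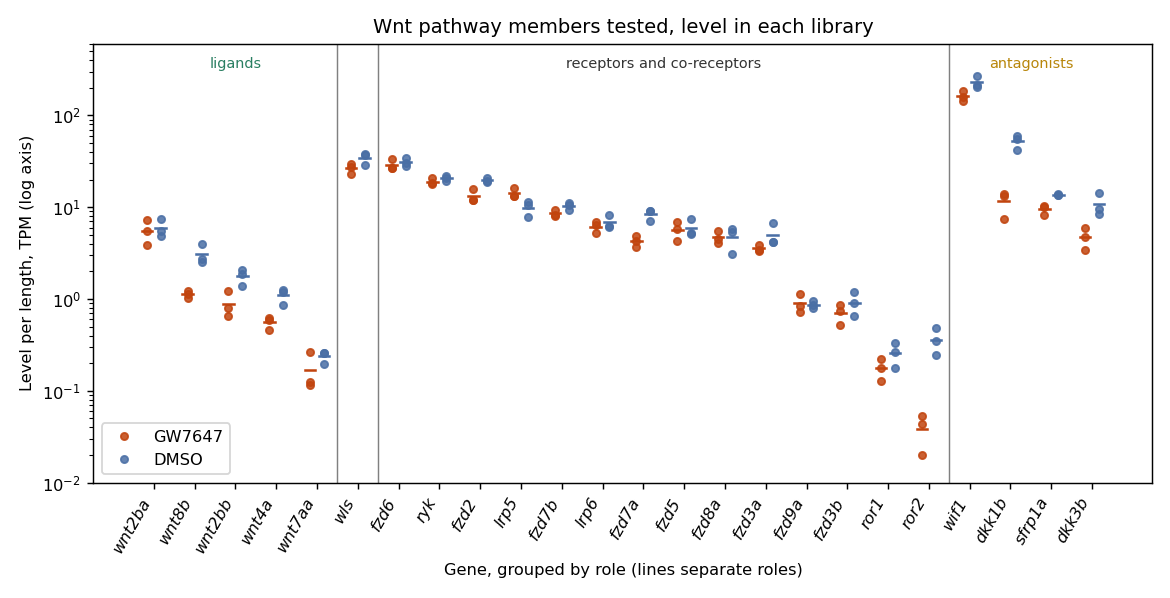
Level of the 24 tested genes in each library as deposited TPM on a log axis, by role, with GW7647 libraries left of DMSO libraries and a bar at each group mean. The antagonist *wif1* stood highest at 162 TPM with GW7647 and 228 TPM with DMSO, while the ligand means lay between 0.170 and 5.97 TPM.

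Ligand transcripts were scarce and came from few genes. The most abundant was *wnt2ba*, a paralog of the liver-specifying *wnt2bb*, at 5.52 ± 1.68 TPM with GW7647 and 5.97 ± 1.38 TPM with DMSO (SD, n = 3 libraries each). Its CPM overlapped between groups, at 4.24, 5.96 and 7.68 in GW7647 replicates 1 to 3 and 4.47, 7.7 and 5.07 in DMSO replicates 1 to 3. The log2 fold change was 0.06 (95% interval -0.54 to 0.66, edgeR adjusted p = 0.92), so a change of either sign within that interval is not excluded. Without TMM scaling the estimate turned to -0.15.

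The second ligand was *wnt8b* (ENSDARG00000006911, chromosome 13 from 29991090 to 30006260, reverse strand), best known for its role in patterning the forebrain. It was at 2.61, 2.71 and 2.25 CPM in GW7647 livers, from 48 to 56 reads, and at 7.64, 5.86 and 4.76 CPM in DMSO livers, from 109 to 166 reads. The highest GW7647 value was thus below the lowest DMSO value. The fall was 2.41-fold (log2 fold change -1.27, SE 0.21, edgeR adjusted p = 0.0090), and the call held with each library left out in turn (-1.42 to -1.07). Few of its reads crossed a splice junction, 8 to 16 in GW7647 and 20 to 27 in DMSO libraries, and with these alone, a count chosen after seeing the data, it was not called (-0.97, adjusted p = 0.083).

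The other ligands with at least 10 reads in every library were *wnt2bb* and *wnt4a*, whose mouse counterpart acts in kidney and gonad development. In GW7647 livers *wnt2bb* was at 1.09, 0.678 and 0.552 CPM, and in DMSO livers at 1.52, 1.54 and 1.01 CPM. The groups overlapped, and the difference was not past the threshold (log2 fold change -0.83, interval -1.59 to -0.07, edgeR adjusted p = 0.16). For *wnt4a* the values were 0.870, 0.629 and 0.806 CPM with GW7647 and 1.38, 1.11 and 1.44 CPM with DMSO. These groups did not overlap, but the gene was not called either (-0.77, interval -1.39 to -0.15, adjusted p = 0.12). The last tested ligand, *wnt7aa*, had fewer reads and was not called (-0.28, interval -1.27 to 0.71, edgeR adjusted p = 0.75). Summed over the 26 ligand genes the level was 8.0, 9.32 and 10.9 TPM with GW7647 and 14.1, 15.6 and 12.8 TPM with DMSO (10.3 to 13.3 CPM with GW7647 and 14.8 to 19.4 CPM with DMSO). Of the TPM sum *wnt8b* made up 9.29% to 14.2% with GW7647 and 17.7% to 28.4% with DMSO, a share that does not depend on library scaling.

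**Figure D2:**
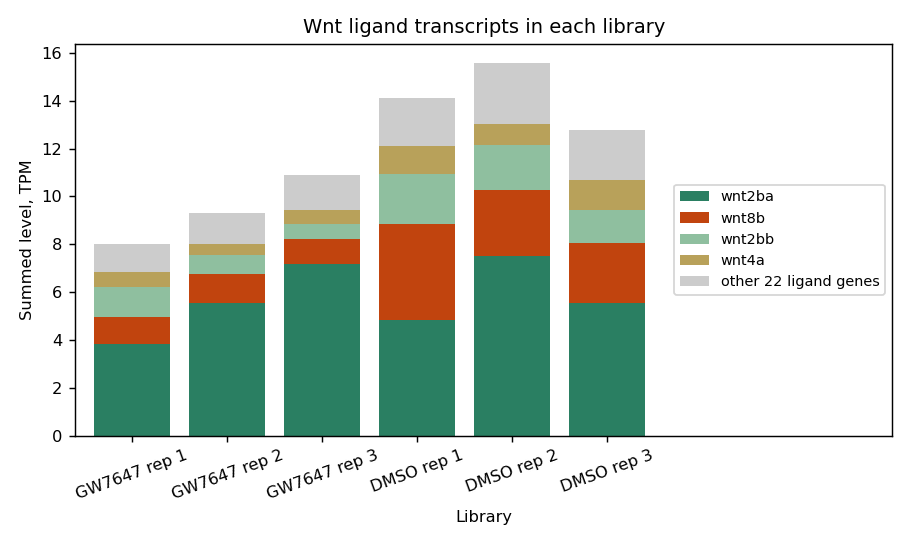
Summed TPM of the 26 Wnt ligand genes in each library, GW7647 replicates left and DMSO replicates right, divided among the 4 most abundant genes and the other 22. The sum was 8.0 to 10.9 TPM with GW7647 and 12.8 to 15.6 TPM with DMSO, and the *wnt8b* segment was smaller in all 3 GW7647 libraries.

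The remaining ligands hardly appeared. *wnt2*, whose mouse counterpart is made by endothelial cells of the liver, had at most 12 reads in any library. *wnt9b*, the other ligand known from the central vein of the mouse, had 0 reads in every GW7647 library and 1, 0 and 1 reads with DMSO. No exon read was counted for *wnt1*, *wnt3a*, *wnt5a*, *wnt6b*, *wnt7ab*, *wnt10a* or both genes named *wnt8a*, which allows each up to 0.127 to 0.163 CPM, depending on the library. Of these, *wnt3a*, *wnt5a*, *wnt6b* and *wnt7ab* had intron reads, at most 4 in any library. Of the secretion factors, *wls* was at 26.6 ± 3.47 TPM with GW7647 and 34.5 ± 5.23 TPM with DMSO (SD, n = 3 each), and its CPM did not differ beyond the spread between libraries (log2 fold change -0.19, interval -0.52 to 0.14, adjusted p = 0.46). *porcn* (ENSDARG00000052558, chromosome 8 from 21146262 to 21155964) had 0 reads on exons, introns and splice junctions in all 6 libraries. Whether the gene was silent or its reads were missed by the annotation or the counting was not tested.

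Receptors were more abundant than ligands, and most of them did not change beyond the spread between libraries. *fzd6*, a Frizzled known from planar cell polarity, led with 29.1 ± 3.74 TPM in GW7647 and 30.9 ± 3.2 TPM in DMSO livers. It was followed by *ryk*, the receptor with a Wif-like domain, with 18.9 ± 1.57 TPM in GW7647 and 20.6 ± 1.38 TPM in DMSO livers. Fold changes of these receptors were near 0 on the log2 scale (0.10 for *fzd6*, adjusted p = 0.65, and 0.06 for *ryk*, adjusted p = 0.73), with intervals of -0.17 to 0.37 and -0.15 to 0.27, and both turned negative without TMM scaling (-0.12 and -0.16). The summed level of the 18 genes depended on the scaling, at 106 to 117 TPM with GW7647 and 118 to 131 TPM with DMSO, but at 254 to 277 CPM with GW7647 and 238 to 247 CPM with DMSO. On TPM the median log2 fold change of all tested genes was itself -0.15 with a pseudocount of 1 and -0.19 with 0.1. Of the 14 tested, 7 had a fitted change below 0, *ror2* among them, and 7 above 0, and the median was -0.03.

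The receptor called lower with the most reads was *fzd7a* (ENSDARG00000060004, chromosome 9 from 13352308 to 13355071, reverse strand). It was at 7.34, 8.09 and 6.15 CPM with GW7647 and at 13.0, 14.6 and 10.1 CPM with DMSO. All GW7647 libraries lay below all DMSO libraries. The log2 fold change was -0.81 (SE 0.17, edgeR adjusted p = 0.022), which is a 1.75-fold fall. It was also called with the block (-0.80, adjusted p = 0.0017) and by DESeq2 (-0.80, adjusted p = 0.0017). The call was lost in 4 of the 6 fits that left out a library, without GW7647 replicate 1 (adjusted p = 0.056) or 3 (0.074) and without DMSO replicate 1 (0.05 after rounding) or 2 (0.077), with a log2 fold change of -0.94 to -0.68 over all 6. Its paralog *fzd7b* was at 14.2, 14.3 and 16.1 CPM with GW7647 and 16.6, 15.5 and 15.8 CPM with DMSO, and was not called (-0.10, interval -0.33 to 0.13, adjusted p = 0.60). The log2 ratio of *fzd7a* to *fzd7b* per length was -0.91, -0.78 and -1.35 with GW7647 and -0.31, -0.04 and -0.60 with DMSO, with no overlap. This is 1 of 5 paralog ratios read after their values were seen, and none was tested.

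*fzd2* was the next Frizzled in level after *fzd6*, at 13.3 ± 2.15 TPM with GW7647 and 19.8 ± 0.983 TPM with DMSO. In CPM its libraries did not overlap, at 18.4, 23.4 and 17.9 with GW7647 and 24.8, 29.4 and 23.9 with DMSO. It was not called (log2 fold change -0.39, interval -0.69 to -0.08, adjusted p = 0.11), but it was with the replicate number as a block (-0.39, adjusted p = 0.013). *fzd5*, *fzd8a* and *fzd9a* had the largest fitted increases after *lrp5* (0.12, 0.18 and 0.23), none called (adjusted p = 0.79, 0.65 and 0.69), and *fzd5* and *fzd8a* turned negative without TMM scaling.

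The co-receptor *lrp5* (ENSDARG00000006921, chromosome 25 from 10640623 to 10769039, reverse strand) was the single member called higher. It was at 102, 81.9 and 81.1 CPM in GW7647 livers, from 1692 to 1911 reads, and at 60.6, 46.6 and 55.2 CPM in DMSO livers, from 1089 to 1316 reads. The lowest GW7647 value was thus above the highest DMSO value. The log2 fold change was 0.71 (SE 0.13, edgeR adjusted p = 0.014), or 1.63-fold. It was 0.48 (adjusted p = 0.039) without TMM scaling and not called by limma on log2(TPM + 1) (0.48, adjusted p = 0.074). *lrp6*, which serves the same purpose in the receptor complex, was at 11.2, 11.7 and 8.87 CPM with GW7647 and 8.93, 10.2 and 11.8 CPM with DMSO, and was not called (0.04, interval -0.32 to 0.39, adjusted p = 0.92). The log2 ratio of *lrp5* to *lrp6* per length, which needs no scaling between libraries, was 1.32, 0.95 and 1.33 with GW7647 and 0.90, 0.32 and 0.36 with DMSO. These did not overlap. *lrp5* shares part of its position with *ap3s2* on the opposite strand, which was not called (-0.11, adjusted p = 0.56). Reads across splice junctions, chosen after seeing the data, gave *lrp5* a log2 fold change of 0.68 (adjusted p = 0.014).

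*ror2* (ENSDARG00000076227, chromosome 10 from 5268054 to 5407509, forward strand), a receptor tyrosine kinase for Wnt5-type ligands, had the lowest counts of the genes called. It had 2, 1 and 3 reads in GW7647 libraries and 11, 19 and 23 reads in DMSO libraries. The GW7647 libraries were thus at or under the limit of detection, and the gene passed the filter through DMSO alone. Summed over libraries, 6 reads with GW7647 against 53 with DMSO gave a ratio of 0.123 after scaling (95% exact binomial interval 0.0432 to 0.286, counting error only). The fitted log2 fold change of -2.95 (SE 0.51, edgeR adjusted p = 0.011) depends on a prior count at this depth. DESeq2 gave it no adjusted p, and it could not be tested when 10 reads were required in every library. *ror1* was at 0.380, 0.629 and 0.509 CPM with GW7647 and 0.644, 0.898 and 0.437 CPM with DMSO, and was not called (-0.37, interval -1.24 to 0.50, adjusted p = 0.60). *ror1* shares part of its position with *si:dkey-209n16.2* on the same strand, and the effect of this on its counts was not tested.

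**Figure D3:**
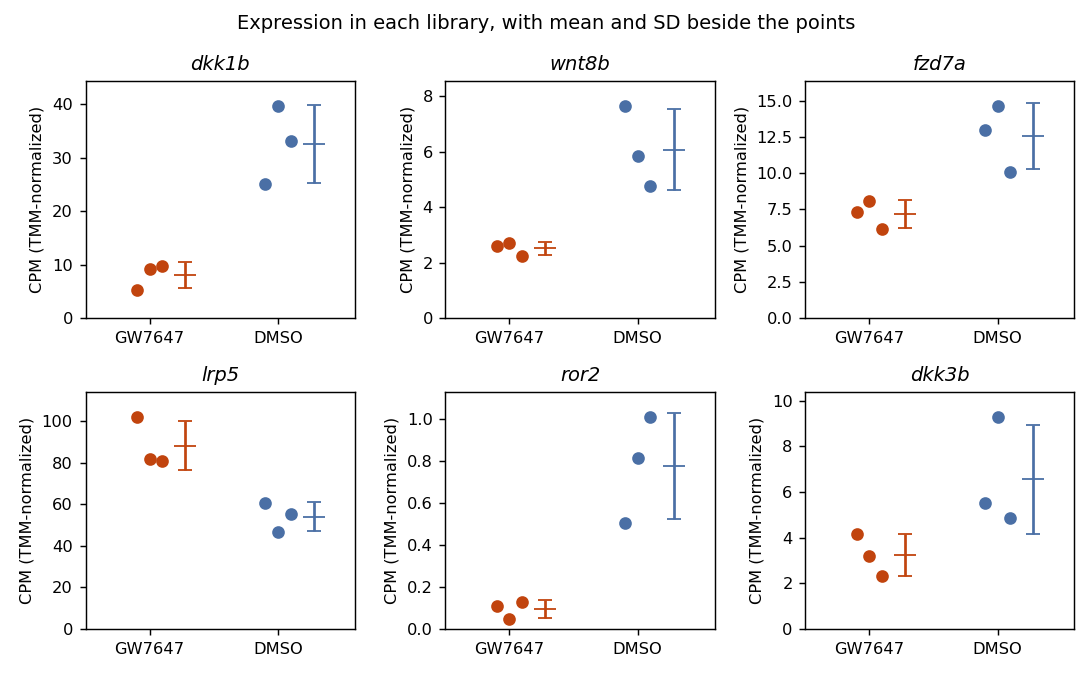
CPM in each library for the 5 genes called and *dkk3b*, GW7647 left and DMSO right, with points for replicates 1 to 3 and the mean ± SD beside them. The groups do not overlap in any panel, *lrp5* is the only gene higher with GW7647, and *dkk1b* shows 5.33 to 9.76 CPM with GW7647 against 25.1 to 39.6 CPM with DMSO. *ror2* passed the filter through DMSO libraries alone.

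Secreted antagonists had the highest summed TPM of the 4 roles, and all 4 that were tested had a fitted change below 0. *dkk1b* (ENSDARG00000045219, chromosome 12 from 6465557 to 6467675, forward strand), whose product removes Lrp5 and Lrp6 from the receptor complex, fell most among well-covered members. It was at 5.33, 9.2 and 9.76 CPM with GW7647, from 98 to 230 reads, and at 25.1, 39.6 and 33.1 CPM with DMSO, from 545 to 926 reads. No GW7647 library reached the lowest DMSO value. The log2 fold change was -2.0 (SE 0.24, interval -2.53 to -1.47, edgeR adjusted p = 0.0018), a 4.0-fold fall. It stayed between -2.22 and -1.78 and was called in all 17 alternatives. Its paralog *dkk1a* had 1 read in GW7647 replicate 2 and 0 in the other libraries.

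*dkk3b*, from a divergent branch of the Dickkopf family, showed a similar picture with more spread. It was at 4.18, 3.2 and 2.33 CPM with GW7647 and 5.52, 9.28 and 4.85 CPM with DMSO, where replicate 2 stood highest. The log2 fold change was -1.03 (interval -1.69 to -0.36) and was not past the threshold (adjusted p = 0.063), but it was called with the block (-1.0, adjusted p = 0.014) and by DESeq2 (-1.01, adjusted p = 0.014). It was called in no edgeR fit that left out a library (-1.25 to -0.69, adjusted p = 0.058 to 0.18). Without DMSO replicate 2, the library with the most pancreas and muscle markers, it was -0.69 (adjusted p = 0.18), and without GW7647 replicate 3 it was -0.83 (adjusted p = 0.17).

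The most abundant of all members was *wif1*, which encodes the secreted Wnt inhibitory factor, with 162 ± 20.5 TPM in GW7647 and 228 ± 35.3 TPM in DMSO livers (SD, n = 3 each). In CPM it was at 168, 182 and 208 with GW7647 and 197, 234 and 261 with DMSO. GW7647 replicate 3 lay above DMSO replicate 1, so the groups overlapped. The log2 fold change of -0.31 (interval -0.60 to -0.02) was not called (adjusted p = 0.17), whereas the blocked fit called it (-0.31, adjusted p = 0.023). *sfrp1a*, a secreted Frizzled-related protein, was at 9.13, 11 and 11.3 CPM with GW7647 and 12.7, 14.5 and 12.5 CPM with DMSO. Its groups did not overlap, and it was called neither without the block (-0.33, adjusted p = 0.14) nor with it (-0.34, adjusted p = 0.070). *sfrp1a* shares part of its position with *loxl2b* on the same strand, and the effect of this on its counts was not tested. The other Sfrp, *frzb* and Dkk genes had at most 7 reads in any library, among them *sfrp1b*, with 1, 0 and 1 reads with GW7647 and 5, 5 and 1 reads with DMSO.

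*dkk1b* made up 4.50% to 7.04% of the summed TPM of the antagonists with GW7647 and 15.7% to 19.6% with DMSO, without overlap. In sum the antagonists were at 164 to 212 TPM with GW7647 and 267 to 346 TPM with DMSO, and at 187 to 232 CPM with GW7647 and 241 to 312 CPM with DMSO. Most of the TPM sum was *wif1*, which was not called, with 84.9% to 86.8% in GW7647 and 70.9% to 77.5% in DMSO libraries.

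**Figure D4:**
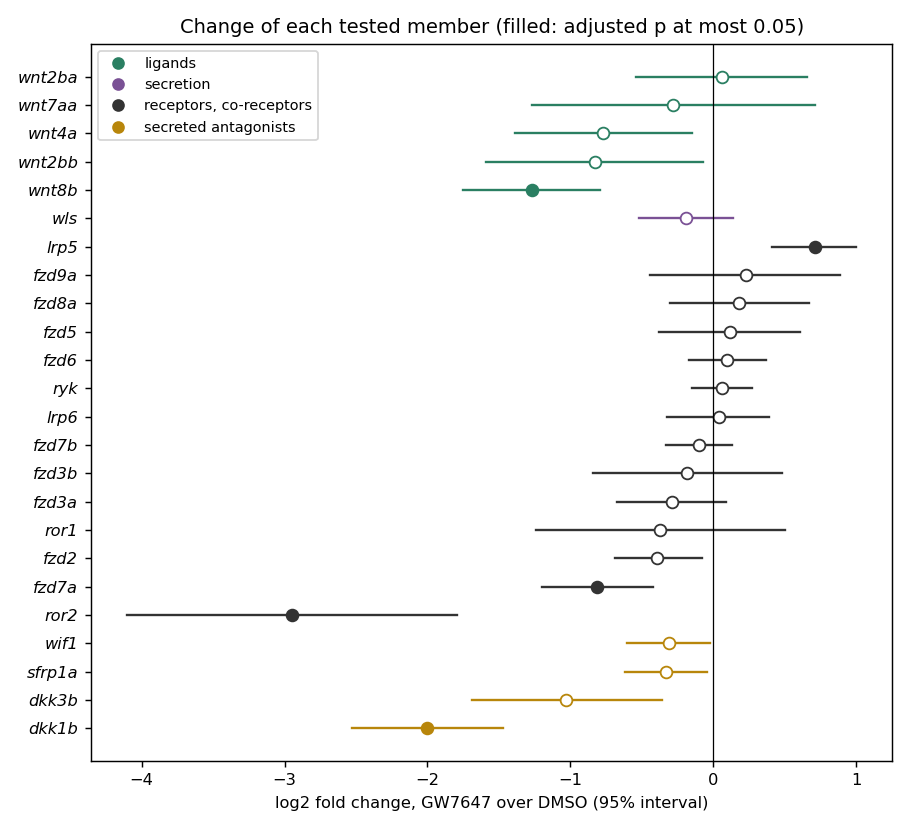
Log2 fold change (GW7647 over DMSO) of the 24 tested genes with the 95% interval of edgeR's fit, by role, with filled points at an adjusted p of at most 0.05. All 4 antagonists lie left of 0, the receptors scatter on both sides, and the interval of *ror2* is the widest at -4.10 to -1.79.

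The other genes of the pathway were read from lists of its cytoplasmic, nuclear, feedback, extracellular and planar polarity components. Of all tested genes, the block called 7.72% lower and 9.95% higher. In the cytoplasmic core, which holds the complex that degrades β-catenin, edgeR called 0 of 17 tested genes, DESeq2 called 0, and 1 gene had an unadjusted p under 0.05 (*dvl3a*, log2 fold change -0.37, adjusted p = 0.11). With the block *dvl3a* was called (-0.38, adjusted p = 0.045). Among the nuclear partners it called 0 of 14, as did DESeq2, and 2 had an unadjusted p under 0.05, the smaller being that of *tcf7* (-0.40, adjusted p = 0.12). With the block 1 nuclear partner was lower, *lef1* (-0.42, adjusted p = 0.014, and 0.18 without the block). The zebrafish β-catenin gene *ctnnb1* was at 292 ± 17.3 CPM with GW7647 and 277 ± 27.3 CPM with DMSO (SD, n = 3 each). Its log2 fold change was 0.08 (edgeR adjusted p = 0.70). Whether reads of the transgene, a *Xenopus* β-catenin, were counted on *ctnnb1* was not tested. The median log2 fold change was 0.04 in the core and -0.08 among nuclear partners.

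Some extracellular components fell. Of 11 tested R-spondins, Lgr receptors and modulators, 3 were lower and 0 were higher, beside 3.56% and 5.5% of all tested genes. The list median was -0.48. *apcdd1l*, related to a membrane inhibitor of Wnt receptors, was at 0.870, 0.726 and 0.806 CPM with GW7647 and 2.49, 1.8 and 2.58 CPM with DMSO (-1.51 on the log2 scale, adjusted p = 0.0097). The R-spondin gene *rspo3*, whose product strengthens Wnt signaling by sparing Frizzled receptors from removal, was at 10.9, 12.8 and 11.5 CPM with GW7647 and 17.9, 21.1 and 17.1 CPM with DMSO (-0.67, adjusted p = 0.012). *tinagl1* also fell (-0.71, adjusted p = 0.0098). The groups did not overlap for any of these genes, which were picked because they were called. Of all tested genes, 15.3% lay lower with GW7647 without overlap. All 3 were called in every alternative that tested them, each a refit of the same libraries. With the block 4 of the 11 were lower and 1 was higher, beside 7.72% and 9.95% of all tested genes.

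Of 13 tested feedback and target genes, 2 were lower and 0 were higher, beside 3.56% and 5.5% of all tested genes. The 2 genes encode Notum, the secreted enzyme that strips the lipid from Wnts, and the list median was -0.28. *notum1a* was at 8.42, 9.97 and 9.84 CPM with GW7647 and 16.8, 21.3 and 17.5 CPM with DMSO (-0.97, adjusted p = 0.0034). *notum1b* was at 18.3, 23.8 and 26.1 CPM with GW7647 and 31.8, 48.0 and 40.7 CPM with DMSO (-0.82, adjusted p = 0.022). The call of *notum1b* was lost without GW7647 replicate 1 (0.062) or 2 (0.067) and without DMSO replicate 2 (0.068) or 3 (0.058), and *notum1a* kept its call throughout. The widely used β-catenin target *axin2* was at 73.9 ± 13.2 CPM with GW7647 and 95.6 ± 19.7 CPM with DMSO and was not called (-0.37, adjusted p = 0.23), but it was with the block (-0.37, adjusted p = 0.020). The block called 5 genes of this list lower and 1 higher, beside 7.72% and 9.95% of all tested genes. The lower genes besides *notum1a*, *notum1b* and *axin2* were *ccnd1* (-0.61, adjusted p = 0.054, and 0.014 with the block) and *notum2* (-1.41, adjusted p = 0.11, and 0.018 with the block). DESeq2 called 3 lower and 1 higher, beside 654 and 1148 of 15409 genes. The gene that the block called higher was *glula*, a glutamine synthetase gene known as a β-catenin target in the mouse liver, at 166, 94.0 and 130 CPM with GW7647 and 89.2, 66.9 and 100 CPM with DMSO (0.61, adjusted p = 0.11, and 0.0059 with the block).

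Of 16 tested planar cell polarity genes, 1 was higher and 1 was lower, beside 5.5% and 3.56% of all tested genes. The list median was -0.03. The cytoplasmic polarity gene *prickle1b* was at 0.652, 0.678 and 0.976 CPM with GW7647 and 2.03, 1.88 and 2.32 CPM with DMSO (-1.41, adjusted p = 0.014, and 0.055 without GW7647 replicate 2). The formin gene *daam1b* rose by 0.48 (adjusted p = 0.017), a call that was lost without TMM scaling (0.25, adjusted p = 0.10), with limma on TPM, and without GW7647 replicate 1 (0.059) or DMSO replicate 2 (0.051).

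**Figure D5:**
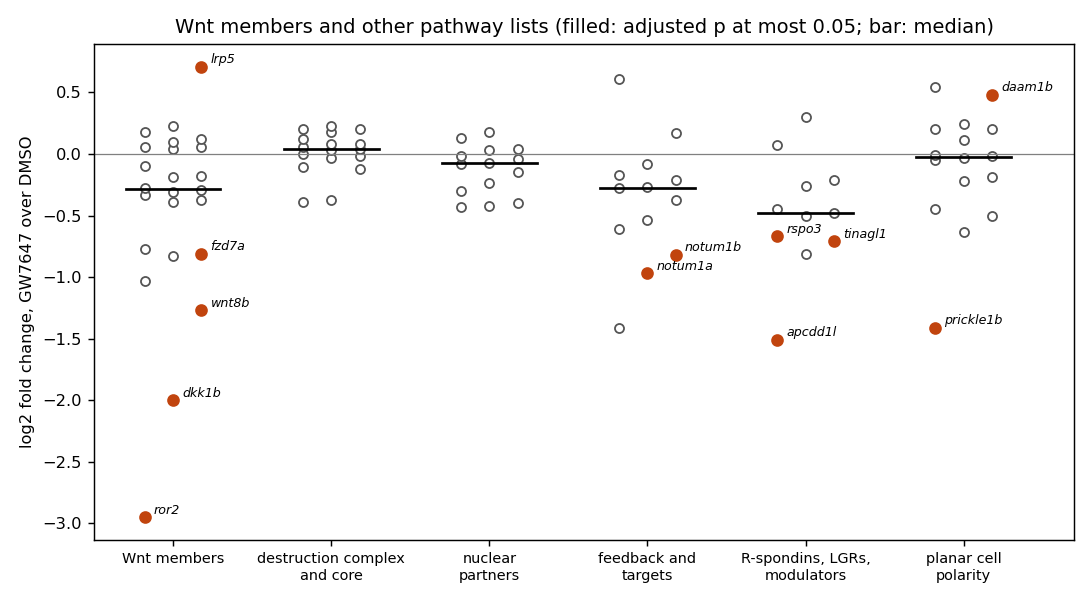
Log2 fold change (GW7647 over DMSO) of every tested gene of the Wnt members and of the 5 other lists, with filled, named points at an adjusted p of at most 0.05 and a bar at each list's median. The medians run from -0.48 for R-spondins, Lgr receptors and modulators to 0.04 for the cytoplasmic core.

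Wnt ligands and antagonists are made by several cell types of the liver, so marker lists of those cells were read beside them. Of all tested genes, edgeR called 3.56% lower and 5.5% higher. Of 13 tested stellate cell or fibroblast markers, 6 were lower and 0 were higher, all 13 had a fitted change below 0 (median -1.03), and the summed level of all 16 was 105 to 127 CPM with GW7647 and 177 to 246 CPM with DMSO. Of these, *lum* and *cygb2* had 3 reads or fewer in every library. Of 11 tested biliary or progenitor markers, 3 were lower (sum 11494 to 11954 CPM with GW7647, 13274 to 14832 CPM with DMSO), with *spp1* at 3 reads or fewer. Macrophage markers had 3 of 11 lower (89.8 to 98.6 CPM with GW7647, 107 to 124 CPM with DMSO), and neutrophil markers 2 of 6 lower (11.3 to 12.9 CPM with GW7647, 17.5 to 24.3 CPM with DMSO), with *cxcr2* at 3 reads or fewer. Of 16 endothelial markers, 0 were called by edgeR or DESeq2 and 3 had an unadjusted p under 0.05 (sum 273 to 313 CPM with GW7647, 283 to 314 CPM with DMSO). Hepatocyte markers had 8 of 12 higher, while *fabp10a*, whose promoter drives the transgene, fell by 0.36 on the log2 scale (adjusted p = 0.05 after rounding, called). Intestine markers summed to 82.0 to 102 CPM with GW7647 and 25.7 to 56.3 CPM with DMSO, with 0 of 5 called by edgeR, 1 by DESeq2 and 2 at an unadjusted p under 0.05. The part of any of these shifts in the changes of *dkk1b*, *wnt8b*, *fzd7a*, *ror2*, *lrp5*, *rspo3* or the Notum genes was not tested.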

How the data were processed

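Stranded poly(A) libraries were sequenced from both ends (2 × 75 bases). The authors mapped the reads in CLC Genomics Workbench; the version, genome build, strand setting and treatment of reads with several positions are not given in the sources used here, and positions are printed as deposited. Deposited counts are exon reads per gene, not normalized. The deposited TPM and RPKM were made by the authors' software from the same reads, and the deposited fraction columns (unique and intron shares) were not tested. RPKM was not used here.

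Counts were compared with edgeR 4.0.16 (R 4.3.3; TMM, filterByExpr with a minimum count of 10, no covariate). Standard errors came from the F statistic. Ratios of summed reads had exact binomial intervals (SciPy 1.17.1). p-values measure the spread between pooled libraries, which the study describes as independent samples, from mass-bred embryos of several clutches. Numbers were taken to pair the libraries because deviations from group means correlated at 0.161 to 0.324 in the 3 same-numbered pairs and at -0.239 to 0.0754 in the 6 others. Centring within each group ties these correlations to one another, and whether the numbers mark true pairs was not tested. Calls, intervals and the fits with a library left out came from fits without this pairing, unless the block is named. Same-numbered libraries also carry a common label in their deposited names, which was not used here. What that label or the number stands for is not stated. Alternatives were DESeq2 1.42.0, other scaling, filters and read counts, the block, each library left out and limma 3.58.1 on TPM. The fits were tested on simulated data with 200 changed genes. The simulation gave every gene the same dispersion, changed no low-count gene and held no effect of the replicate number. It therefore says nothing about low-count members such as *ror2* or about the pairing.

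Members and lists were chosen with earlier results of these data known. The genes named were every member called, the 5 most abundant of each role, the 5 largest and 5 smallest log2 fold changes, members at the filter, and in each list up to 3 genes called or the gene with the smallest p. Others, such as the paralog pairs, *lrp6*, *dkk1a*, *wnt9b*, *ctnnb1*, *axin2*, *lef1* and *glula*, were named for their role after values were seen. *ccnd1* and *notum2* were named because the block called them. Of 223 list entries, 210 were matched to a gene, 4 of them through a table of identifiers and symbols.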

Additional observations from a re-analysis of the deposited data

How the results depend on the processing

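Direction and call of *dkk1b* held in every alternative, *wnt8b* lost its call only with splice-junction reads and *lrp5* only with limma on TPM. *fzd7a* lost its call in 4 fits that left out 1 library. *ror2*, at 1 to 3 reads per GW7647 library, entered through DMSO alone, so its calls across alternatives say nothing about stability. With the replicate block 7 members were lower in place of 4 (*fzd2*, *wif1* and *dkk3b* were added), 15 pathway list genes were called in place of 7, and over all genes 1563 were higher and 1212 lower in place of 864 and 559. The block changed no other call among the 21 members named and tested. Without TMM scaling 9 members were lower, 17 list genes were called, and 460 genes were higher and 2382 lower, while the median of all tested genes moved to -0.23. Changes of members under that scaling are to be read relative to this shift. With limma on log2(TPM + 1) 0 members were higher and 10 lower, 11 list genes were called, and 420 genes were higher and 1474 lower. Splice-junction reads, chosen after seeing the data, tested 14 members and called 2 lower, *dkk1b* and *dkk3b* (-1.10, adjusted p = 0.031). *wnt8b* was tested and not called, and *fzd7a* and *ror2*, with 0 and 1 to 4 such reads per library, were not tested. With each library left out in turn, 502 to 676 genes were higher, 209 to 386 were lower, and 3 to 4 members were lower.

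Signs were followed for 21 of the 24 tested members, not for *fzd3a*, *fzd3b* and *lrp6*. Among the 21, signs turned only for genes with small changes that were not called. Without TMM scaling these were *fzd5* (-0.11), *fzd6* (-0.12), *fzd8a* (-0.05), *ryk* (-0.16) and *wnt2ba* (-0.15). With limma on TPM they were *fzd5* (-0.07, or -0.08 with a pseudocount of 0.1), *fzd6* (-0.08, -0.09), *ryk* (-0.12, -0.13) and *wnt2ba* (-0.11, -0.13). With splice-junction reads they were *fzd7b* (0.14), *ryk* (-0.01) and *wnt2ba* (-0.15). With a library left out, *fzd5* ran from -0.05 to 0.30, *fzd8a* from -0.01 to 0.33 and *wnt2ba* from -0.17 to 0.33. The cause was not tested. Low counts limit the ligands most, since 17 of 26 had 3 reads or fewer in every library. Whether depth or absent expression lay behind these counts was not tested.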
